A study of Mus musculus with 14 samples.

Results

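The hearts described here are the 10 that had carried a constricted aorta for 1 week, out of 14 in the series, ranked by how strongly each expressed a small set of load-induced genes. Transverse aortic constriction (TAC) narrows the aorta with a ligature, which raises the pressure the left ventricle has to work against, and a sham operation leaves the aorta open. Polyadenylated RNA of ventricular tissue was sequenced from 4 mice lacking Ccl24, which encodes an eosinophil-attracting chemokine, after TAC (replicates 1, 2, 4 and 5), 6 wild type mice after TAC (replicates 1, 2, 3, 4, 6 and 7), 2 knockout mice after sham surgery and 2 wild type mice after sham surgery. The sources used here give no strain, age, sex or design of the knockout allele. The load score of a heart was the mean of log2(CPM + 0.5) over Nppa, Nppb, Acta1 and Ankrd1, where CPM is the usual depth-normalised count of a gene, with TMM scaling. The members were selected on the operation in the labels, and their order was chosen by the measured levels of these 4 genes. Score and genes were centred within each genotype, so a gene was asked whether it moved with the score among hearts of the same genotype label. The number given for a gene is its slope, the log2 change that went with a rise of the score by 1 log2 unit, over all 10 TAC hearts. The score is a level of expression: pressure gradients, heart weights and function were not analysed here.

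A ventricle under pressure overload switches on a fetal and stress gene programme in its cardiomyocytes, in which natriuretic peptides, skeletal actin and proteins of the Z-disc and intercalated disc are made. The same load activates fibroblasts, which lay down collagen under the control of TGF-beta, and draws in and expands macrophages. Oxidation of fatty acids and the genes of mature repolarisation and calcium cycling are known to decline as the response goes on. In whole ventricular tissue, fewer cells of a type and less RNA per cell cannot be told apart.

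The 14 libraries held 17072262 to 33123052 gene counts, so that 3 counts stood for 0.091 to 0.18 CPM. Libraries of a group differed by more than sampling noise in every pair. Only 3 Ccl24 counts were in the library labelled wild type TAC replicate 1, where the 4 knockout TAC libraries held 8, 5, 6 and 3 and the other 5 wild type TAC libraries held at least 56. It goes against its label and was kept in its labelled group. The main slope, the difference between genotype slopes and the comparison with sham were repeated without it, but fits with other scores or covariates and of wild type TAC alone were not. Genes that define ventricular cardiomyocytes took 48178 to 76949 CPM in sum, and 8 of 8 of them were detected. Of markers of other tissues, the 5 lung genes summed to at most 0.441 CPM in any library, and the 9 lymphocyte and thymus genes, of which 2 were at 0 throughout, to at most 5.65 CPM.

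The score separated the TAC hearts from one another by up to about 1 log2 unit within a genotype. In order of rising score, knockout TAC replicates 4, 5, 2 and 1 scored 11.1, 11.3, 11.5 and 11.9, and wild type TAC replicates 1, 2, 6, 3, 4 and 7 scored 11.3, 11.4, 11.9, 11.96, 12.2 and 12.4. The knockout sham hearts scored 9.72 and 9.89 and the wild type sham hearts 10.7 and 10.7. Every TAC heart lay above every sham heart. Knockout TAC hearts averaged 11.5 ± 0.330 (SD, n = 4), and wild type TAC hearts 11.9 ± 0.418 (SD, n = 6), and the spans within genotype were 0.776 and 1.06. Values of a gene below are given in this order of rising score, so that a gene that scales reads as a climbing or falling row.

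**Figure D1:**
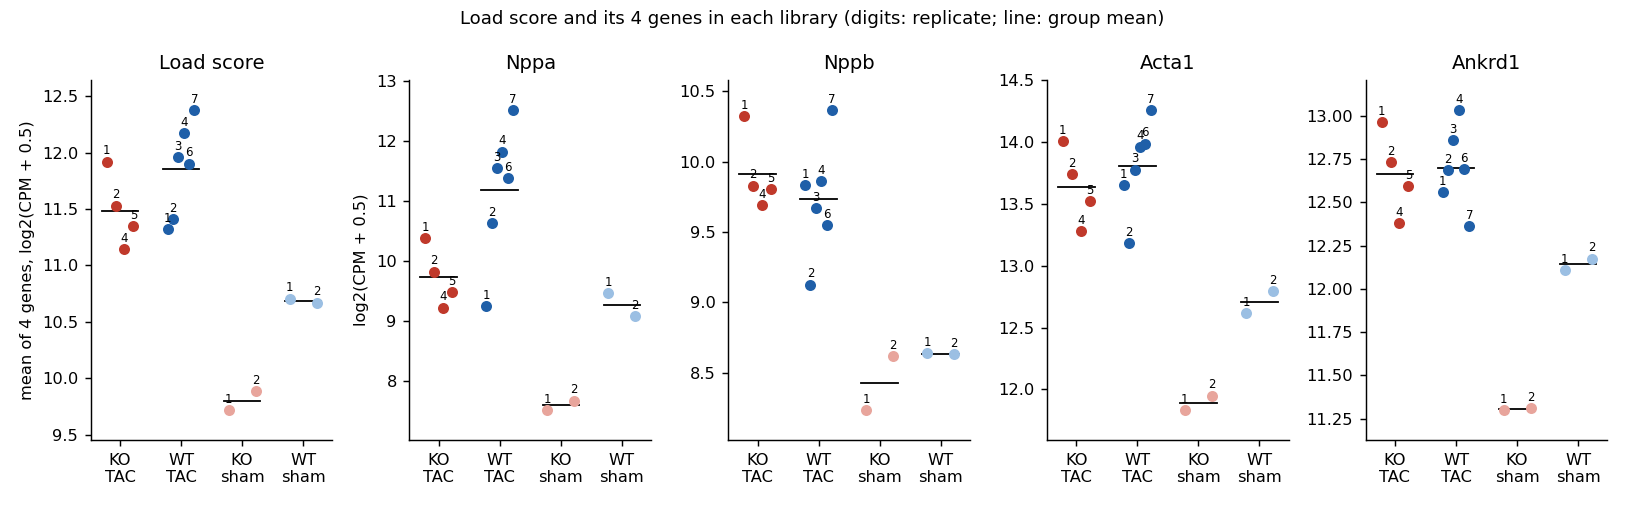
Load score and log2(CPM + 0.5) of its 4 genes in each of the 14 libraries, by group; digits are replicate numbers and lines are group means. Wild type TAC replicate 7 is the highest for Nppa, Nppb and Acta1 among wild type TAC hearts and the lowest of them for Ankrd1, at 5263.5 CPM.

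The 4 genes of the score did not contribute alike. They chose the order of the hearts, so their values are a description. Nppa, the precursor of atrial natriuretic peptide (chromosome 4, 148000722 to 148002079, plus strand, GRCm38), supplied 57.0% of the variance of the centred score. It stood at 597, 713, 904 and 1338 CPM in knockout TAC, and 605, 1592, 2663, 2998, 3626 and 5891 CPM in wild type TAC. The row climbs in both genotypes, with wild type TAC replicate 1 between the wild type sham hearts (706 and 541 CPM). Nppb, the precursor of B-type natriuretic peptide and a neighbour of Nppa on chromosome 4 (147985788 to 147987205, plus strand), supplied 17.5%. It stood at 827, 893, 909.7 and 1280.4 CPM in knockout TAC, and 912, 558, 749.6, 813, 929.7 and 1321 CPM in wild type TAC. Here wild type TAC replicate 2, not replicate 1, was the lowest wild type TAC heart. Acta1, the skeletal alpha-actin that loaded ventricles make again (chromosome 8, 123891769 to 123894751, minus strand), supplied 19.997%. It stood at 9956, 11742, 13679 and 16476 CPM in knockout TAC, and 12857, 9294, 16240, 14043, 15981 and 19631 CPM in wild type TAC. Ankrd1, a stress-responsive ankyrin repeat protein of sarcomere and nucleus (chromosome 19, 36111961 to 36120099, minus strand), supplied 5.54%. It stood at 5325, 6170.1, 6796 and 7986 CPM in knockout TAC, and 6039.7, 6596, 6609, 7421, 8386 and 5264 CPM in wild type TAC. In the knockout hearts the Ankrd1 row follows the score, and in the wild type hearts it does not, since the highest-scoring heart is the lowest. Across the 10 hearts the centred level of Ankrd1 had a Pearson r of 0.22 with the mean of the other 3 genes, against 0.65 for Nppa, 0.60 for Nppb and 0.83 for Acta1. On this scale a rise of the score by 1 went with 2.18 in Nppa, 0.67 in Nppb, 0.78 in Acta1 and 0.26 in Ankrd1.

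The promoters of the 4 score genes are shown because every ranking below rests on these genes. Each is 300 bases, from 250 before to 50 after the start that RefSeq gives on GRCm38.p6 and written 5′ to 3′ on the strand of the gene. Capitals mark exact matches on either strand to the M-CAT element (CATTCC, bound by TEAD factors) and to the CArG box (bound by serum response factor). Both are known from cardiac promoters. The CArG letters searched were CCWWWWWWGG, where W is A or T. The gene coordinates in the text are GENCODE's, whose start is that of RefSeq for Nppa but not for Nppb, Acta1 and Ankrd1, so the windows of these genes do not line up with them.
Nppa, chr4:148000472-148000771, plus strand: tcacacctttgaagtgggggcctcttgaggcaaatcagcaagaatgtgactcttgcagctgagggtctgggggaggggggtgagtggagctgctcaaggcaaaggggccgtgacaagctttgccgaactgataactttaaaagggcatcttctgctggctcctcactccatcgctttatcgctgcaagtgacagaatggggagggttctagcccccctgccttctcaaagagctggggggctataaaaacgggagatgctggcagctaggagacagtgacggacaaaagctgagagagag
Nppb, chr4:147985650-147985949, plus strand: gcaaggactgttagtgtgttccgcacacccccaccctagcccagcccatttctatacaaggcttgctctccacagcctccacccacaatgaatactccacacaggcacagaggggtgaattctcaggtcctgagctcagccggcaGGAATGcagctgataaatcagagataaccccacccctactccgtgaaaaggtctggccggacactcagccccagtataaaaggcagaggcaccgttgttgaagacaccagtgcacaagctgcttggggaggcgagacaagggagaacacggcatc
Acta1, chr8:123894726-123895025, minus strand: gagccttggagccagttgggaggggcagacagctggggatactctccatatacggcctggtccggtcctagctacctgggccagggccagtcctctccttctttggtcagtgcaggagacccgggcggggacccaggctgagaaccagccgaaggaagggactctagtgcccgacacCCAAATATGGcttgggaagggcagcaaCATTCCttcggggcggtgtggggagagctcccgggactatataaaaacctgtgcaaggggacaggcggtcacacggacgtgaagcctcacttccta
Ankrd1, chr19:36119795-36120094, minus strand: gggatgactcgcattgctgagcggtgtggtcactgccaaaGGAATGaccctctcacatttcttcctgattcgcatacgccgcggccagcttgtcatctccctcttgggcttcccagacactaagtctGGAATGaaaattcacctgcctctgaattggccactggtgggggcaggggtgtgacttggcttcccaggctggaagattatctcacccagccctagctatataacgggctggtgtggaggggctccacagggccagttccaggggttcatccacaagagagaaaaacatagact
The Nppb window held 1 M-CAT match, the Acta1 window 1 M-CAT match and 1 CArG box, and the Ankrd1 window 2 M-CAT matches. The Nppa window held neither as an exact match, and none of the 4 windows held the AP-1 letters TGANTCA. Sites that differ from these letters were not searched for, so a window without a match may still hold such a site. Of all 32851 promoter windows of the same length, 14.7% held an M-CAT match, 1.63% a CArG box and 7.81% the AP-1 letters. A match is a run of letters and not a measured binding site.

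With the 4 score genes left out, 1233 of 15110 genes tested rose with the score (8.16%) and 758 fell with it (5.02%), by edgeR's quasi-likelihood test at an adjusted p under 0.05. An exact permutation of hearts within genotype gave a p under 0.05 for Pearson's r of 3880 of the 15110 genes, and an adjusted p under 0.05 for 1195. Of the 1991 genes called by edgeR, 1983 had a permutation p under 0.05, and their smallest absolute r was 0.63. Both tests used the same hearts and score, which favoured small p-values and high r among genes already called. Among the 1000 centred genes of highest variance, score genes excluded, the first principal component held 53.5% of the variance, had an r of 0.93 and a rho of 0.88 with the score. Some hearts carried much of the count: 789 genes rose and 427 fell in the fit that omitted the heart labelled wild type TAC replicate 1, 689 and 310 when replicate 2 of that group was omitted, and 597 and 268 when its replicate 7 was. With a score of Nppb, Acta1 and Ankrd1 alone, 214 of the 15110 rose and 112 fell. List counts given below for a score without Nppa stand beside these numbers. Of all 1991 called genes, 1078 were still called when the heart labelled wild type TAC replicate 1 was omitted, 974 without replicate 2 and 799 without replicate 7. With the score without Nppa 311 were. Of 66 called genes followed through every alternative, 54 were still called without replicate 1, and 48 in all 10 leave-one-out fits. Many of these 66 were named for steep slopes or small p-values, which favoured their calls.

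Counts from mitochondrially encoded genes moved opposite to the score in nearly every step. They took 19.2%, 16.5%, 15.4% and 14.9% of the counts in the knockout TAC hearts in order of rising score, and 17.1%, 16.7%, 14.6%, 11.6%, 13.1% and 10.1% in the wild type TAC hearts. The share was 20.5% and 23.7% in knockout sham and 18.8% and 18.5% in wild type sham. Its Pearson r with the score was -0.92 (rho -0.89, n = 10, exact permutation p = 0.0021, 0.0090 adjusted over the 5 library measures compared), and -0.80 without wild type TAC replicates 1 and 2, the hearts farthest from the median of the score centred within genotype. The share of counts in the 20 highest genes, several of them mitochondrial, had an r of -0.89 (rho -0.83, exact permutation p = 0.0036, adjusted 0.0090; -0.74 without those hearts). Total counts (r 0.44, exact permutation p = 0.25), TMM factors (r 0.13, p = 0.71) and the number of genes with at least 10 counts (r 0.25, p = 0.50) did not pass. With the mitochondrial share added to the model, edgeR called 0 genes on the score; 704 (4.66%) had an unadjusted p under 0.05, and 1910 of the 1991 genes kept their sign. The fitted slopes divided, in genes picked after their values were seen. With the share in the model the slope was 1.68 for Xirp2 (1.62 without it), 3.24 for Krt18 (2.93), 1.85 for Tgfb2 (1.84) and 1.81 for Ctgf (1.91). It was 0.48 for Col1a1 (1.79), 0.65 for Cthrc1 (4.52) and 0.075 for C1qb (0.77). The slope of mt-Nd1 was -0.042 (-0.69), but mt-Nd1 is itself counted in the share, so this value was largely set by the model. None of these passed adjustment with the share in the model, and in these 10 hearts score and share moved together.

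**Figure D2:**
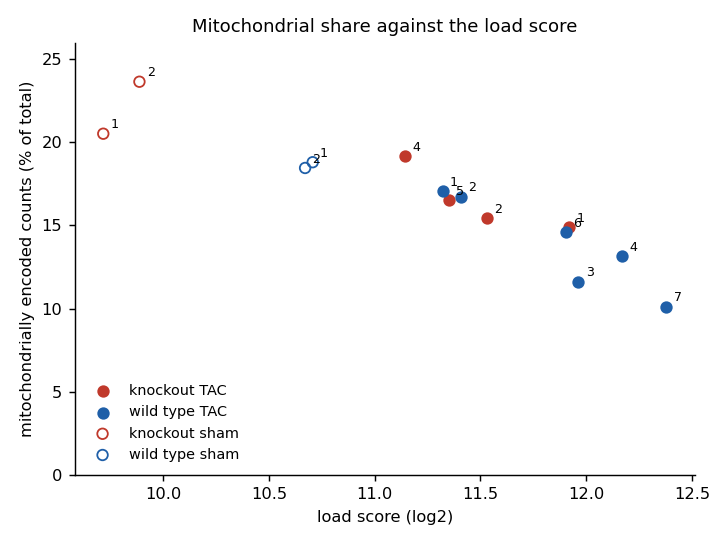
Share of counts from mitochondrially encoded genes (percent of each library's total) against the load score; filled points are TAC hearts, open points sham hearts, digits replicate numbers. Among TAC hearts the share is 14.9% in the knockout and 10.1% in the wild type heart of highest score, against 19.2% and 17.1% in those of lowest score.

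Other genes that cardiomyocytes switch on under load climbed together with the score. Of 24 such genes outside the score, 17 rose with it and 0 fell, with a median slope of 0.86. Of all genes tested 8.16% rose, and their median slope was 0.0048. Xirp2, an actin-binding Xin-repeat protein of the intercalated disc (chromosome 2, 67446002 to 67526614), followed the score closely. It stood at 747, 888, 1150.2 and 1613 CPM in knockout TAC, and 1005, 1194, 2486, 2109.6, 2478 and 3775 CPM in wild type TAC. Xirp2 climbed at each step of the score except that wild type TAC replicate 6 lay above replicates 3 and 4. Its slope was 1.62 (SE 0.14, adjusted p = 5.2e-05), with an r of 0.98 and a rho of 0.92. Synpo2l, an actin-associated Z-disc protein, stood at 410.0, 522, 663 and 999.7 CPM in knockout TAC, and 519, 587, 869, 868, 1034 and 1017 CPM in wild type TAC. Its slope was 1.17 (SE 0.14, adjusted p = 0.00016), and the wild type TAC row was level between its 2 highest-scoring hearts. Enah, which guides actin filament growth at cell junctions, had a slope of 1.06 (SE 0.13, adjusted p = 0.00029). Ankrd2, a stretch-responsive relative of Ankrd1, was low throughout at 1.01, 1.66, 2.80 and 3.62 CPM in knockout TAC, and 1.99 (lowest), 5.33 (median) and 10.99 (highest) CPM in wild type TAC, and had a slope of 2.104 (SE 0.26, adjusted p = 0.00022). Krt18, a keratin of simple epithelia that is also made by stressed cardiomyocytes, had a slope of 2.93 (SE 0.20, adjusted p = 9.1e-06). In knockout TAC it stood at 1.19, 0.860, 1.47 and 5.19 CPM, so that 1 heart alone was high, and in wild type TAC at 4.28, 5.33, 13.7, 16.9, 22.5 and 35.9 CPM. Sprr1a, a cornified-envelope protein induced by cardiomyocyte stress and picked here after its values were seen, had the steepest slope of the list at 5.39 (SE 0.84), at a mean of only 1.09 CPM. Without wild type TAC replicate 7 the number of these genes that rose was 11 of 24, and it was 12 to 17 without any other 1 heart. On a score without Nppa it was also 11.

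Among the lists, the highest median slopes belonged to fibroblast and matrix genes. Of 20 markers of activated fibroblasts 18 rose and 0 fell, with a median slope of 1.96, and of 39 genes of extracellular matrix and crosslinking 34 rose and 0 fell, with a median of 1.19. Every member tested of both lists had a positive slope, where 7636 of all 15110 genes tested did. Over all genes tested 8.16% rose. Leaving out any 1 heart left 15 to 18 activated fibroblast markers and 25 to 35 matrix genes. Leaving Nppa out of the score left 7 and 12. Postn, the matricellular protein periostin (chromosome 3, 54361109 to 54391037), stood at 197, 335, 547 and 633 CPM in knockout TAC, and 469, 473, 1310.0, 1150.4, 1381 and 2413 CPM in wild type TAC. Its sham levels were 68.4 and 55.2 CPM in knockout sham and 234 and 178 CPM in wild type sham. The knockout TAC row climbed at every step, and in wild type TAC the 2 hearts of lowest score lay apart below the other 4. A rise of the score by 1 went with a 4.55-fold rise of Postn, a slope of 2.19 (SE 0.20, adjusted p = 7.2e-05), with an r of 0.96 and a rho of 0.94.

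Fibrillar collagens rose at lower slopes than Postn. Col1a1, a chain of type I collagen, stood at 311, 386, 608 and 647 CPM in knockout TAC, and 486, 483, 1069, 1336, 922 and 2185 CPM in wild type TAC, and had a slope of 1.79 (SE 0.25, adjusted p = 0.00084). Col3a1, type III collagen, had a slope of 1.59 (SE 0.21, adjusted p = 0.00045), and Col1a2 had a slope of 1.68 (SE 0.19, adjusted p = 0.00013). Adamts2, which removes the amino end of procollagen, had a slope of 1.25 (SE 0.13, adjusted p = 7.9e-05), and Pcolce, which speeds removal of the carboxyl end, had a slope of 1.03 (SE 0.11, adjusted p = 9.3e-05). Thbs4, a thrombospondin that stressed muscle and fibroblasts secrete, stood at 19.9, 26.8, 45.0 and 74.6 CPM in knockout TAC, and 60.4, 64.5, 129, 115, 123 and 275 CPM in wild type TAC. It rose with a slope of 2.01 (SE 0.20, adjusted p = 0.00013). Ltbp2, a matrix protein of elastic microfibrils, had a slope of 2.78 (SE 0.27, adjusted p = 0.00017).

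A few matrix genes were low in the low-scoring hearts and far higher in wild type TAC replicate 7 than in any other heart. Fmod, the collagen-binding fibromodulin, stood at 1.497, 2.98, 6.99 and 11.7 CPM in knockout TAC, and 3.04, 2.50, 15.2, 24.5, 11.6 and 80.1 CPM in wild type TAC, a slope of 4.21 (SE 0.59, adjusted p = 0.0036). Comp, a cartilage matrix protein related to thrombospondins, had a slope of 3.26 (SE 0.34, adjusted p = 0.00029). Cthrc1, which marks matrix-producing fibroblasts of the injured heart, stood at 0.572, 0.98, 3.53 and 4.21 CPM in knockout TAC, and 0.665, 0.882, 6.76, 15.2, 4.16 and 34.1 CPM in wild type TAC. Its slope of 4.52 (SE 0.88, adjusted p = 0.014) was the largest among called genes averaging 5 CPM or more. Lox, which crosslinks collagen, had a slope of 3.06 (SE 0.59, adjusted p = 0.015), Spp1, the cytokine and matrix protein osteopontin, 4.17 (SE 0.91, adjusted p = 0.024), and Timp1, an inhibitor of matrix metalloproteinases, 2.86 (SE 0.53, adjusted p = 0.013). Wild type TAC replicate 7 held 72.0 CPM of Spp1, and no other TAC heart more than 10.7. These calls rested on few hearts. Without wild type TAC replicate 7 the adjusted p was 0.087 for Cthrc1, 0.099 for Lox, 0.14 for Spp1, whose slope then was 2.57, and 0.066 for Timp1. Without replicate 1 or replicate 2 Cthrc1, Lox and Spp1 also missed the threshold, at 0.061 to 0.084, and Timp1 missed it without replicate 2, at 0.052. Tnc, the injury-induced tenascin C, had a slope of 2.09 (SE 0.53, adjusted p = 0.038) and missed the threshold without any 1 of 6 hearts (adjusted p up to 0.18).

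Markers of resting fibroblasts split. Of 20, 7 rose and 0 fell, where 8.16% of all genes tested rose, and the median slope was 0.18. Pi16, a peptidase inhibitor of the fibroblasts around vessels, climbed in exact order of the score within genotype, at 110.0, 148, 166 and 190.3 CPM in knockout TAC, and 176, 224, 337, 359, 372 and 509.5 CPM in wild type TAC. Its rho was 1.00 and its slope 1.20 (SE 0.12, adjusted p = 7.9e-05), with an exact permutation p of 5.787e-05, the smallest that the 17280 pairings can give. Mmp2, a gelatinase secreted by fibroblasts, had a slope of 0.94 (SE 0.13, adjusted p = 0.00057). Pdgfra, the receptor by which cardiac fibroblasts are usually recognised, moved little: 54.9, 47.8, 48.6 and 55.7 CPM in knockout TAC, and 69.0 (lowest), 85.9 (median) and 99.3 (highest) CPM in wild type TAC, with a slope of 0.32 (SE 0.10, adjusted p = 0.049) that missed the threshold in 9 of 10 leave-one-out fits. Tcf21, a transcription factor of resting cardiac fibroblasts, had a slope of -0.12 (SE 0.17, adjusted p = 0.67) and did not pass.

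**Figure D3:**
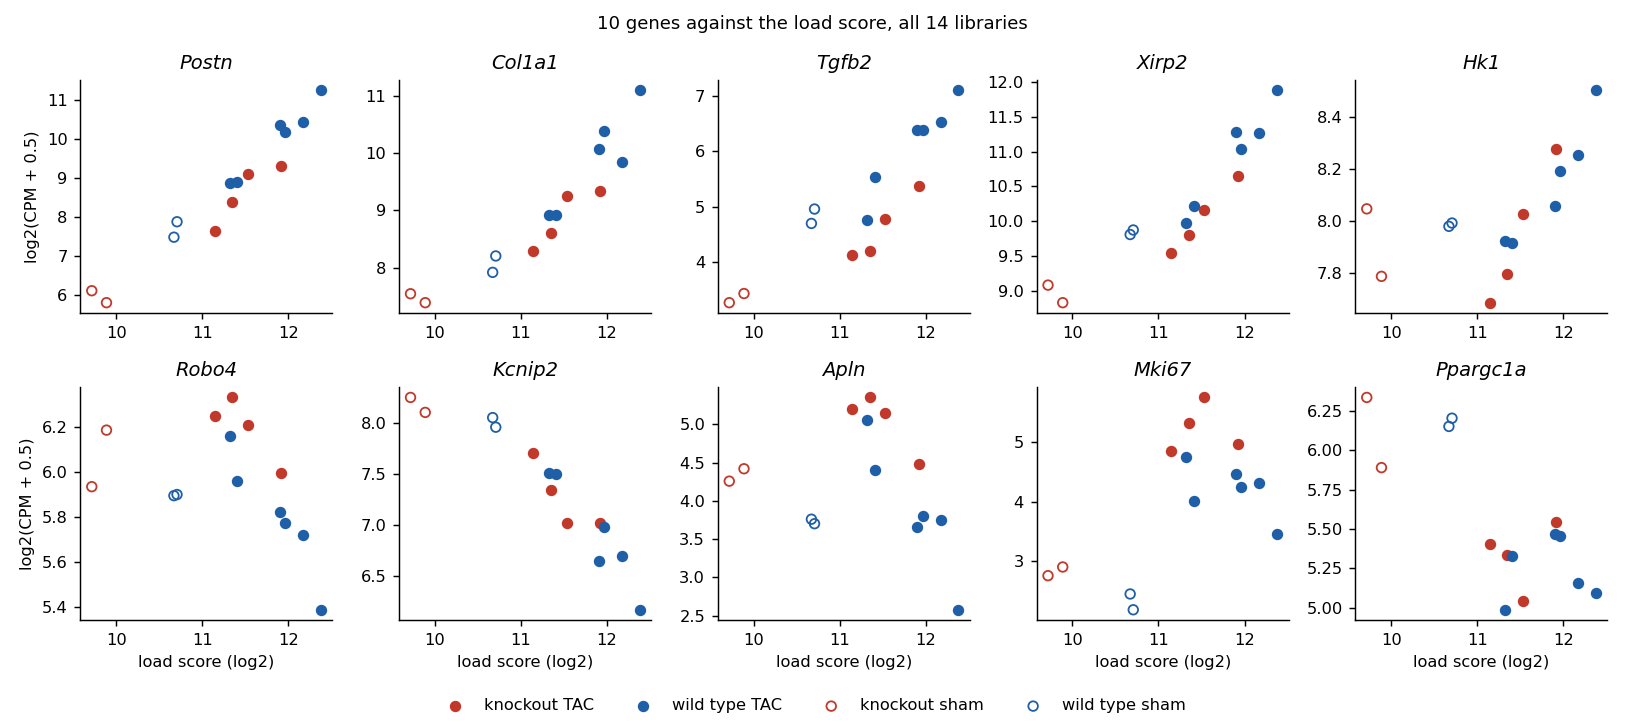
Log2(CPM + 0.5) of 10 genes against the load score in all 14 libraries; filled points are TAC hearts and open points sham hearts. Postn, Col1a1, Tgfb2, Xirp2 and Hk1 rose among the TAC hearts, Robo4, Kcnip2 and Apln fell, and Mki67 and Ppargc1a did not pass, with slopes of -0.44 and 0.07.

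Of 17 ligands, receptors and feedback genes of the TGF-beta pathway 10 rose with the score and 0 fell, where 8.16% of all genes tested rose. The median slope was 0.56, and 7 to 10 rose without any 1 heart. With a score without Nppa 0 of the 17 rose, where 214 of all 15110 genes tested did, so the loss was not particular to this list. Tgfb2 (chromosome 1, 186622792 to 186705989) stood at 17.1, 17.9, 27.0 and 41.1 CPM in knockout TAC, and 26.8, 45.9, 83.1, 82.9, 91.3 and 136 CPM in wild type TAC. The lowest wild type heart held less Tgfb2 than 1 of the 2 wild type sham hearts (30.6 and 25.5 CPM), and the highest lay above all 4 sham hearts. Its slope was 1.84 (SE 0.16, adjusted p = 7.2e-05), with an r of 0.96. Of the other ligands on the list, Tgfb3 had a slope of 0.98 (SE 0.11, adjusted p = 0.00013) and Tgfb1 a slope of 0.56 (adjusted p = 0.036), and Ltbp3, which holds TGF-beta in latent form in the matrix, 1.18 (SE 0.13, adjusted p = 0.00011). Ctgf, a target of TGF-beta and of YAP, stood at 202, 359, 403 and 689 CPM in knockout TAC, and 311, 326, 683, 528, 699.7 and 1363 CPM in wild type TAC and had a slope of 1.91 (SE 0.18, adjusted p = 7.2e-05); of 20 YAP and TAZ target genes 7 rose and 0 fell, among them Ctgf and Tgfb2.

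Of 21 growth factor and cytokine ligands 6 rose and 2 fell, where 8.16% of all genes tested rose and 5.02% fell. Pdgfc, a ligand of PDGF receptors, had a slope of 1.45 (SE 0.19, adjusted p = 0.00038), and Hbegf, a ligand of the EGF receptor family, 1.00 (SE 0.18, adjusted p = 0.0034). Vegfa, the main growth factor of vessels, fell, at 308, 293, 288 and 189.7 CPM in knockout TAC, and 237, 203, 217, 137, 150.0 and 135 CPM in wild type TAC, with a slope of -0.76 (SE 0.15, adjusted p = 0.0056). Angpt2, the angiopoietin that loosens vessels, fell at lower levels of 2.70 to 7.53 CPM, with a slope of -1.17 (SE 0.21, adjusted p = 0.0031). Without wild type TAC replicate 7 the ligands that rose were 3, where 597 of all 15110 genes tested rose.

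Macrophage genes rose less steeply. Of 24 markers 10 rose and 0 fell, with a median slope of 0.55; 4 rose once wild type TAC replicate 1 was left out, 5 without wild type TAC replicate 2, 3 without wild type TAC replicate 7 and 6 when knockout TAC replicate 4 was dropped. On a score without Nppa 0 of the 24 rose, where 214 of all 15110 genes tested did. C1qb, a chain of complement C1q made by tissue macrophages, stood at 58.4, 63.2, 79.5 and 76.1 CPM in knockout TAC, and 66.9, 78.4, 101, 116, 95.9 and 142 CPM in wild type TAC, and had a slope of 0.77 (SE 0.13, adjusted p = 0.0026). Mrc1, the mannose receptor of resident macrophages, had a slope of 0.57 (SE 0.11, adjusted p = 0.0050). Adgre1, which encodes F4/80, had a slope of 0.67 (SE 0.18, adjusted p = 0.028), and missed the threshold without wild type TAC replicate 1 or 2 or knockout TAC replicate 4 (adjusted p 0.071 to 0.11). Csf1r, the receptor for the growth factor macrophages live on, had a slope of 0.43 (SE 0.19, adjusted p = 0.16) and did not pass. Of 12 markers of monocytes and neutrophils tested 2 rose, and 1 to 4 without any 1 heart, where 8.16% of all genes tested rose. Their median slope of 1.13 was above that of the macrophage markers, and 11 of the 12 had a positive slope. Over all genes tested 7636 of 15110 had a positive slope.

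Some genes of glucose use rose. Of 18 genes of glucose uptake and glycolysis 6 rose and 0 fell, with a median slope of 0.25, where 8.16% of all genes tested rose. Without knockout TAC replicate 1 the list had 5 genes higher and 5 lower. Hk1, the hexokinase of growing and fetal tissue, stood at 206, 222, 261 and 309.5 CPM in knockout TAC, and 243, 241, 266, 292, 305 and 362 CPM in wild type TAC. The lowest knockout heart lay below and the highest wild type heart above all 4 sham hearts (264 and 221 CPM in knockout sham and 254 and 252 CPM in wild type sham), and the slope was 0.58 (SE 0.099, adjusted p = 0.0021). Slc2a1, the insulin-independent glucose transporter GLUT1, had a slope of 1.13 (SE 0.17, adjusted p = 0.0013), and Pgk1, an enzyme of lower glycolysis, 0.58 (SE 0.12, adjusted p = 0.0061). Slc6a8, which imports creatine, had a slope of 0.44 (SE 0.094, adjusted p = 0.0082). Hk1 and Slc2a1 kept their calls in all 10 leave-one-out fits, while the list count was 3 without wild type TAC replicate 2, wild type TAC replicate 7 or knockout TAC replicate 4. It was 5 with a score without Nppa.

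Cytoskeletal, chaperone and immediate early genes moved in part, where 8.16% of all genes tested rose. Of 13 tubulin isotypes 4 rose, among them Tuba1c with a slope of 0.89 (SE 0.14, adjusted p = 0.0017), but 1 rose without wild type TAC replicate 2 or 7. Of 11 heat shock chaperones 3 rose, among them Hsp90aa1 with a slope of 0.56 (SE 0.11, adjusted p = 0.0059); 1 rose when wild type TAC replicate 2 was left out and 5 when replicate 4 was. Of 26 immediate early genes 5 rose, against 3, 8 and 2 when wild type TAC replicate 2, 4 or 7 was left out in turn. Maff, a small Maf transcription factor, had a slope of 0.79 (SE 0.17, adjusted p = 0.0084), with an adjusted p of 0.080 without wild type TAC replicate 7. Jun, a subunit of AP-1, had a slope of 0.039 (SE 0.11, adjusted p = 0.86) with an interval of -0.20 to 0.28, and Fos, its partner, 1.27 (SE 0.40, adjusted p = 0.058); neither passed.

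**Figure D4:**
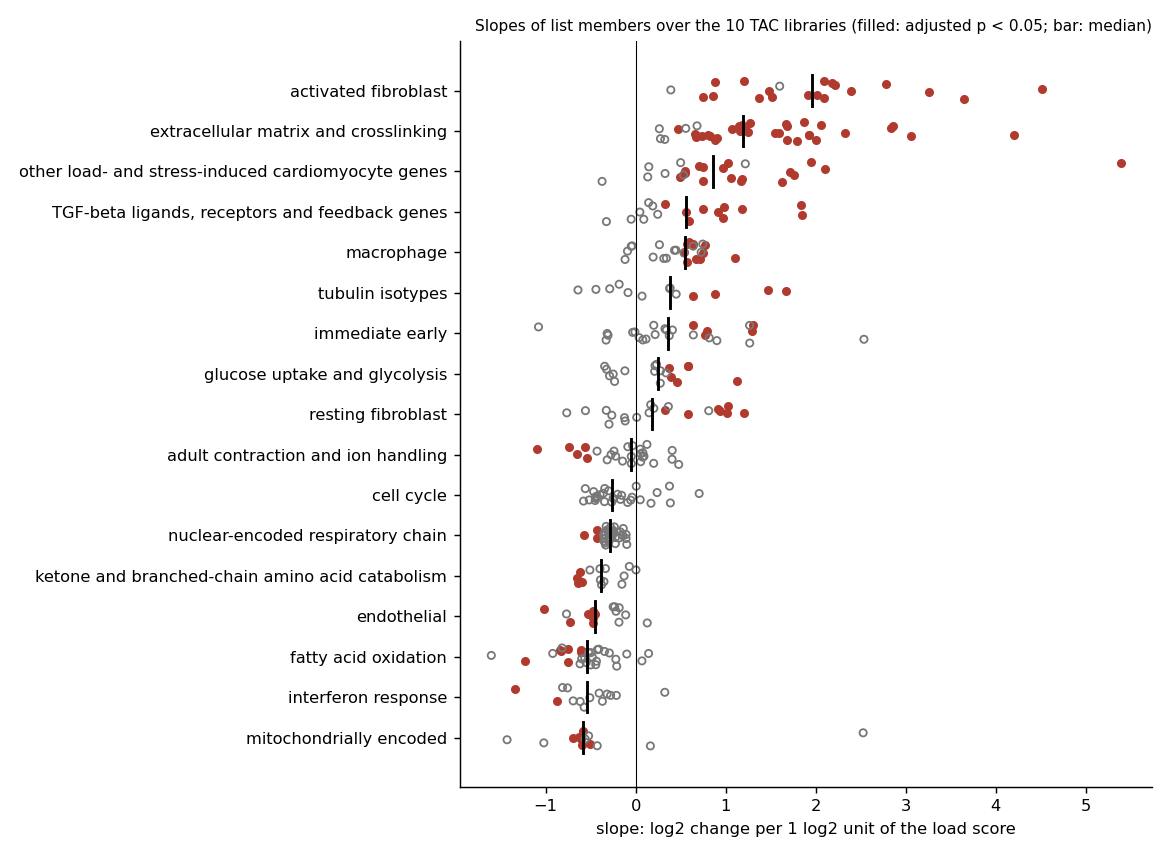
Slopes on the load score of the tested members of 17 gene lists over the 10 TAC hearts; filled points have an adjusted p under 0.05 by edgeR and bars are list medians. Medians run from 1.96 for activated fibroblast markers to -0.59 for mitochondrially encoded genes.

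Fatty acid oxidation ran opposite to the score. Of 30 genes of this pathway 8 fell and 0 rose, with a median slope of -0.54, and 28 had a negative slope. Over all genes tested 5.02% fell, and 7636 of 15110 had a positive slope. Eci1, an isomerase needed for unsaturated fatty acids, ran between 167 and 237 CPM in knockout TAC, and stood at 205, 186, 101, 139.5, 113 and 93.4 CPM in wild type TAC. In wild type TAC the 2 hearts of lowest score were the highest; in knockout TAC the heart of lowest score was the highest and replicate 2 lay below replicate 1. Its slope was -0.84 (SE 0.17, adjusted p = 0.0066). Ech1, another auxiliary enzyme of the pathway, had a slope of -0.75 (SE 0.19, adjusted p = 0.018); it missed the threshold without wild type TAC replicate 1, 2 or 7 (adjusted p 0.067 to 0.097). Cpt1b, the muscle carnitine transferase that lets fatty acids into mitochondria, was counted at only 1.32 to 4.67 CPM and had a slope of -1.23 (SE 0.30, adjusted p = 0.015), with an adjusted p of 0.064 without wild type TAC replicate 2. The list count rested on single hearts in both directions, since 18 of the 30 fell when knockout TAC replicate 1 was left out, and 2 or 3 when wild type TAC replicate 1, 2 or 7 was. On a score without Nppa 1 of the 30 fell, where 112 of all 15110 genes tested did. Of 14 genes of ketone and branched-chain amino acid breakdown 4 fell, 10 when knockout TAC replicate 1 was left out and 0 when wild type TAC replicate 1, 2 or 7 was.

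Among mitochondrially encoded genes themselves 6 of 13 fell and 0 rose, with a median slope of -0.59; 3 fell when knockout TAC replicate 4 was left out, 2 when wild type TAC replicate 1 was, and 1 when wild type TAC replicate 2 or 7 was. On a score without Nppa 0 of the 13 fell, where 112 of all 15110 genes tested did. mt-Nd1, a subunit of complex I, stood at 26085, 21495, 20007 and 20177 CPM in knockout TAC, and 22680, 19998, 16106, 13268, 14843 and 11966 CPM in wild type TAC, and had a slope of -0.69 (SE 0.15, adjusted p = 0.0085). mt-Co1, the catalytic subunit of complex IV, had a slope of -0.59 (SE 0.17, adjusted p = 0.037), and missed the threshold in 7 of 10 leave-one-out fits. Nuclear genes of the respiratory chain leaned the same way in smaller steps: all 37 had a negative slope, with a median of -0.28. Of all genes tested, 7636 of 15110 had a positive slope. Only 3 of the 37 fell, where 5.02% of all genes did. The count was 17 without knockout TAC replicate 1, 6 without wild type TAC replicate 6 and 1 without knockout TAC replicate 4. It was 0 without wild type TAC replicate 1 or 2, and 0 with a score without Nppa.

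Some genes of adult contraction and ion handling fell. Kcnip2, the subunit that carries the fast transient outward current to the membrane (chromosome 19, 45791839 to 45816061), stood at 208, 163, 129 and 129.7 CPM in knockout TAC, and 182, 181, 100.2, 126, 103 and 71.6 CPM in wild type TAC. Sham hearts held 305 and 275 CPM in knockout sham and 249 and 266 CPM in wild type sham. Every TAC heart lay below every sham heart, and among TAC hearts the slope was -1.09 (SE 0.14, adjusted p = 0.00032), with an r of -0.93 and a rho of -0.81. Kcnj2, the channel of the resting potential, had a slope of -0.66 (SE 0.12, adjusted p = 0.0038). Of 26 genes of adult contraction and ion handling 5 fell and 0 rose, with a median slope of -0.049, so most of the list did not pass. Over all genes tested 5.02% fell. Once Nppa was left out of the score, 0 of the 26 fell, where 112 of all 15110 genes tested did. Hrc, a calcium-binding protein of the sarcoplasmic reticulum, had a slope of -0.74 (SE 0.19, adjusted p = 0.021) and Myl2, the ventricular light chain, -0.56 (SE 0.14, adjusted p = 0.018). Both missed the threshold without wild type TAC replicate 1, 2 or 7 (adjusted p 0.068 to 0.10). Without each of these hearts 2 of the 26 fell, where 427, 310 and 268 of all 15110 genes tested did. Myh7b, a myosin heavy chain whose transcript carries a muscle microRNA, is not on the list and also fell, with a slope of -1.59 (SE 0.24, adjusted p = 0.0021).

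Endothelial genes fell with the score. Of 15 markers 7 fell and 0 rose, where 5.02% of all genes tested fell. The median slope was -0.45, and 5 to 8 fell without any 1 heart. With a score without Nppa 0 of the 15 fell, where 112 of all 15110 genes tested did, so the loss was not particular to this list. Robo4, a guidance receptor of endothelium (chromosome 9, 37401897 to 37415115), stood at 75.5, 80.0, 73.5 and 63.3 CPM in knockout TAC, and 71.0, 61.8, 56.1, 54.3, 52.2 and 41.4 CPM in wild type TAC. Sham hearts held 60.7 and 72.3 CPM in knockout sham and 59.2 and 59.03 CPM in wild type sham, within the range of the TAC hearts. Its slope was -0.53 (SE 0.098, adjusted p = 0.0036) and its rho -0.99. Tek, the receptor for angiopoietins, had a slope of -0.45 (SE 0.085, adjusted p = 0.0042), and Egfl7, a secreted endothelial protein, -0.73 (SE 0.14, adjusted p = 0.0053). Pecam1, the adhesion molecule used to stain vessels, had a slope of -0.25 (SE 0.10, adjusted p = 0.12) and did not pass. Apln, the vasodilating peptide apelin (chromosome X, 48025146 to 48034853), fell further, at 36.2, 40.3, 35.1 and 21.9 CPM in knockout TAC, and 32.9, 20.7, 12.2, 13.5, 12.99 and 5.46 CPM in wild type TAC. It had a slope of -1.64 (SE 0.26, adjusted p = 0.0023). Against sham hearts, TAC hearts as a group showed no call for Apln, with a log2 change of 0.54 (SE 0.35, adjusted p = 0.28), or for Robo4, with 0.022 (SE 0.11, adjusted p = 0.90): the lowest-scoring TAC hearts lay above their sham hearts and the highest-scoring wild type TAC heart below.

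Interferon-response genes leaned lower. Of 14, 2 fell and 0 rose, and 13 had a negative slope, with a median of -0.54. Over all genes tested 5.02% fell, and 7636 of 15110 had a positive slope. With Nppa left out of the score 0 of the 14 fell, where 112 of all 15110 genes tested did. Rsad2, the antiviral protein viperin, stood at 11.3, 7.91, 7.90 and 3.18 CPM in knockout TAC, and 9.36, 6.91, 7.28, 6.39, 5.19 and 3.39 CPM in wild type TAC and had a slope of -1.34 (SE 0.26, adjusted p = 0.0050). Oas1a, an activator of RNase L, had a slope of -0.88 (SE 0.22, adjusted p = 0.017), with an adjusted p of 0.060 without wild type TAC replicate 7. Without knockout TAC replicate 2 the list had 4 lower genes, and without wild type TAC replicate 7 it had 1.

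Beyond the lists, the largest slopes by the naming rule included genes of several functions. Serpinb9b, an inhibitor of serine proteases, had a slope of 4.28 (SE 0.59, adjusted p = 0.0017), and Star, which carries cholesterol into mitochondria, 3.39 (SE 0.49, adjusted p = 0.0025). Wild type TAC replicate 7 held 31.3 CPM of Serpinb9b, and no other TAC heart more than 5.43. Ces1d, a carboxylesterase of lipid droplets, had the lowest slope of the called genes averaging 5 CPM or more, at 50.1, 41.2, 23.2 and 23.5 CPM in knockout TAC, and 39.2, 39.7, 9.89, 20.9, 14.5 and 5.10 CPM in wild type TAC, with a slope of -2.101 (SE 0.39, adjusted p = 0.010). Lgals4, a galectin, stood at 31.7, 39.3, 21.3 and 7.87 CPM in knockout TAC, and 11.1, 19.4, 7.99, 4.92, 4.16 and 5.10 CPM in wild type TAC, and had a slope of -2.097 (SE 0.39, adjusted p = 0.0079). Pfkfb1, a regulator of fructose bisphosphate levels, had a slope of -1.67 (SE 0.21, adjusted p = 0.00029).

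Cell cycle genes were not called on the score. All 30 cell cycle genes tested were higher in TAC than in sham hearts by edgeR, where 13.4% of all genes were higher and 12.9% lower, with a median log2 fold change of 2.08. None of the 30 passed on the score in either direction; 0 had an unadjusted p under 0.05, and the median slope was -0.26. Mki67, a marker of dividing cells, stood at 28.5, 39.6, 53.5 and 31.0 CPM in knockout TAC, and 26.5, 15.7, 21.7, 18.6, 19.5 and 10.4 CPM in wild type TAC. Sham hearts held 6.28 and 6.997 CPM in knockout sham and 4.05 and 4.97 CPM in wild type sham. All TAC hearts lay above all sham hearts, the knockout row had its peak at replicate 2, and the slope was -0.44 (SE 0.36, adjusted p = 0.47), with an interval of -1.26 to 0.37. Ccnb1, the mitotic cyclin, had a slope of 0.71 (SE 0.38, adjusted p = 0.24) and Cdk1, its kinase, -0.36 (SE 0.37, adjusted p = 0.58). The intervals of these genes were wide, and a miss of the threshold does not show that they had no slope. Of the 30 genes 1 had an interval within 0.5 of 0, and their median slope ran from -0.53 to 0.071 with any 1 heart left out.

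Ppargc1a, Ppara and Atp2a2 were lower in TAC than in sham hearts and did not pass on the score. Ppargc1a, a coactivator of mitochondrial genes, stood at 41.9, 39.8, 32.4 and 46.2 CPM in knockout TAC, and 31.2, 39.6, 43.8, 43.3, 35.2 and 33.7 CPM in wild type TAC. Relative to sham it differed by -0.87 (SE 0.10, adjusted p = 0.00019) on the log2 scale, and on the score its slope was 0.07, with an interval of -0.28 to 0.42 (adjusted p = 0.82). Ppara, the fatty acid receptor that drives oxidation genes, had -1.37 (SE 0.19, adjusted p = 0.00037) against sham and -0.50 (SE 0.25, adjusted p = 0.21) on the score. Myh7, the beta-myosin heavy chain of the fetal programme, had 0.41 (SE 0.15, adjusted p = 0.057) against sham, where it passed at 0.45 (adjusted p = 0.020) once wild type TAC replicate 1, whose Ccl24 counts go against its label, was omitted, and 0.33 (SE 0.24, adjusted p = 0.41) on the score, with 3242, 3871, 4158 and 2975 CPM in knockout TAC, and 2585 (lowest), 3379.9 (median) and 4997 (highest) CPM in wild type TAC. Atp2a2, which encodes the SERCA calcium pump, had -0.81 (SE 0.14, adjusted p = 0.0010) against sham and -0.43 (SE 0.21, adjusted p = 0.19) on the score. The misses of Atp2a2 and Ppara turned on knockout TAC replicate 1, a high-scoring heart rich in Atp2a2 (7015 CPM). Without it the slope was -0.75 (adjusted p = 0.0044) for Atp2a2 and -0.86 (adjusted p = 0.017) for Ppara. For Pln, the inhibitor of that pump, it was -0.37 (adjusted p = 0.047), against -0.24 with that heart. Ppargc1a still did not pass without it, with a slope of -0.057 (adjusted p = 0.87). Of 224 genes changed by at least 1 against sham that averaged 5 CPM or more, 129 rose and 17 fell with the score. Only Hipk2, a nuclear kinase, had a slope whose interval lay within 0.5 of 0, at -0.42 to 0.50. The remaining genes were not called and had intervals reaching beyond 0.5, so whether they scale is not settled. Over all genes tested, 5782 of 15110 had an interval within 0.5 of 0. The comparison with sham uses the same 10 TAC hearts, so its values stand beside the slopes and do not support them.

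**Figure D5:**
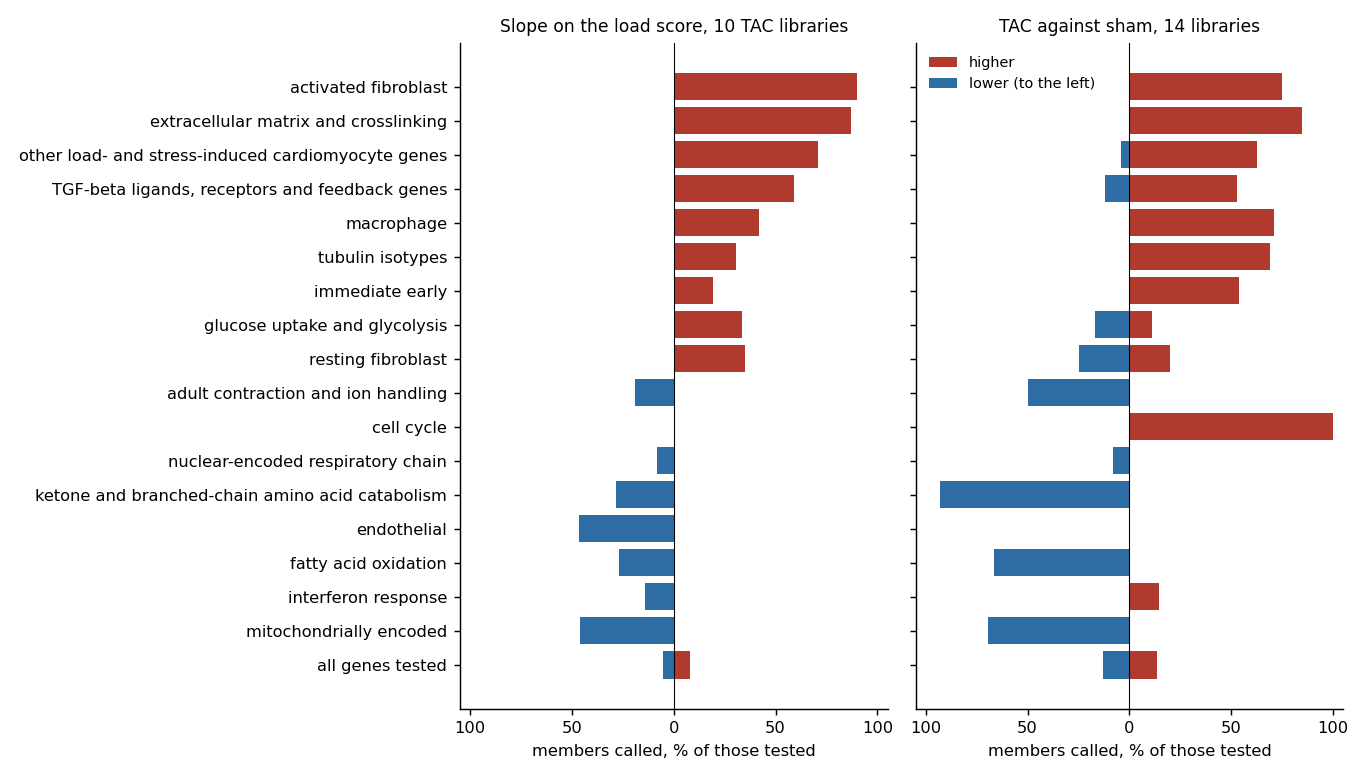
Percent of the tested members of 17 gene lists, and of all genes tested, that passed an adjusted p of 0.05 higher (right) or lower (left), on the score slope over 10 TAC hearts and in TAC against sham over 14 hearts. Cell cycle genes are 30 of 30 higher against sham and 0 of 30 on the slope; endothelial markers are 0 of 15 against sham and 7 of 15 lower on the slope.

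Markers of other tissues and cell types moved with the score in places, where 8.16% of all genes tested rose and 5.02% fell. With the level of the atrial list added to the model 301 genes rose and 162 fell; the part of the other lists below was not tested. Of 5 atrial cardiomyocyte genes tested 2 fell, Kcnj3 with a slope of -1.01 (SE 0.26, adjusted p = 0.028) and Mybphl with a slope of -1.94 (SE 0.48, adjusted p = 0.018), and 0 fell without wild type TAC replicate 2 and 1 without replicate 1 or 7; the 7 listed genes summed to 37.4 to 52.2 CPM in knockout TAC, 29.7 to 50.4 in wild type TAC, 68.7 to 79.8 in knockout sham and 64.7 to 70.0 in wild type sham. The defining atrial light chain Myl7 was at most 1.14 CPM in any library, while Nppa, also an atrial gene, reached 5891 CPM. Of 3 fast skeletal muscle genes tested 2 rose, the light chain Myl1 with a slope of 0.90 (SE 0.14, adjusted p = 0.0015) and the troponin Tnnt3, 1 to 2 without any 1 heart, and the list summed to 170.4 to 321 CPM in knockout TAC, 278 to 595 in wild type TAC, 145 to 173 in knockout sham and 201 to 212 in wild type sham. Of 6 mesothelial and epicardial genes tested 2 rose, Krt18 and Krt8, another keratin and its usual partner, and 1 fell, the transcription factor Wt1 with a slope of -1.01 (SE 0.20, adjusted p = 0.0049); the list summed to 15.9 to 18.9 CPM in knockout TAC, 14.6 to 41.8 in wild type TAC, 9.003 to 9.26 in knockout sham and 9.04 to 12.3 in wild type sham. Of 12 pericyte and smooth muscle genes 2 rose and 2 fell, against 0 higher and 5 lower without knockout TAC replicate 1. Of the 8 genes that define ventricular cardiomyocytes 2 fell, 4 when knockout TAC replicate 1 was left out and 0 when wild type TAC replicate 1, 2 or 7 was. None of the 5 red cell, 5 lymphoid and 1 fat genes tested passed; red cell genes summed to 232 to 913 CPM in knockout TAC and 175 to 272 in wild type TAC.

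Of the 1991 called genes, 1958 had the same sign of slope when the knockout TAC hearts were fitted alone, and 369 were still called. The knockout TAC hearts were part of the fit that called these genes, which favoured the same sign. The sizes in the 2 genotypes were close for some genes and apart for others. Fitted alone, knockout TAC hearts gave Xirp2 a slope of 1.46 and wild type TAC hearts 1.68; the same pair of values was 2.12 and 2.21 for Postn, 1.74 and 1.88 for Tgfb2, 2.12 and 1.84 for Ctgf, and 3.17 and 2.85 for Krt18, of which 1 knockout heart held far more than the other 3. They lay further apart for other rising genes, at 2.42 and 4.73 for Spp1, 0.77 and 1.32 for Ltbp3 and 1.66 and 0.98 for Synpo2l. Among falling cardiomyocyte genes they were -1.59 and -1.58 for Myh7b, -0.86 and -1.19 for Kcnip2 and -0.44 and -0.74 for Kcnj2, and 0.39 in knockout TAC and -0.78 in wild type TAC for Atp2a2, 0.027 and -1.05 for Hrc, and -0.099 and -1.01 for Ech1. The wild type fit holds the heart labelled replicate 1, whose Ccl24 counts go against its label, and was not repeated without it. The test of the difference between the genotype slopes called 0 of 15110 genes by edgeR (0%), with a smallest adjusted p of 0.094, and 1425 (9.43%) had an unadjusted p under 0.05. The smallest unadjusted p values belonged to Inka2, an inhibitor of a p21-activated kinase (8.6e-06), Stk40, a serine/threonine kinase (3.1e-05), and Lpin1, an enzyme of lipid synthesis (3.3e-05). The knockout slope exceeded the wild type slope in each, by 1.65, 1.09 and 1.64. In leave-one-out fits 1 gene passed when knockout TAC replicate 5 was left out, and 2 when wild type TAC replicate 2 was.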

How the data were processed

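Ventricular RNA of 14 mice was sequenced after selection of polyadenylated RNA, per the labels' protocols. The deposited table held raw counts of reads per gene for 54532 gene rows, and the submitters' processing notes name HISAT2 2.1.0, featureCounts and GRCm38; the sources used here give neither the annotation release nor the strand setting of the counting, so overlapping genes may share reads. 102 symbols had more than 1 gene ID.

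CPM values were computed here from these counts with TMM factors over the 14 libraries. Of the genes, 15114 passed edgeR's expression filter over the 10 TAC libraries, and 15110 were tested after the 4 score genes were set aside. Slopes came from edgeR 4.0.16 (R 4.3.3), a robust quasi-likelihood fit of genotype and score, with Benjamini-Hochberg adjustment over all genes tested; the standard error is the slope divided by the square root of F, and intervals are at the 95% level. Pearson's r and Spearman's rho were tested over all 17280 pairings within genotype, two-sided. The comparison with sham was an additive edgeR fit over 14 libraries. DESeq2 1.42.0, limma 3.58.1, other filters, scalings, scores and covariates, and each library left out were alternatives. Libraries held 17072262 to 33123052 counts; floors of 3 counts cover counting error only. On simulated data the score fit recovered 81% of 100 genes with a slope of 1 and 98% of 100 with a slope of 2, among 15110 genes, with 18 false calls, 9.14% of all calls, above the nominal threshold.

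The members and the 33 gene lists were chosen with earlier results of these data known. Genes named were drawn from the 4 score genes, the 12 highest and 12 lowest slopes among called genes averaging 5 CPM or more and 1 sign in all leave-one-out fits, up to 4 members of each list by smallest p, a fixed set of textbook genes, genes changed by TAC with a slope interval within 0.5 of 0, and the 3 smallest interaction p values. Nothing in the labels says that the mice were litter mates or that shared replicate numbers mark a batch, and p-values measure the spread between these hearts.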

Additional observations from a re-analysis of the deposited data

Results flagged for a closer look

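Dixon's test for a single far value was run in 164 groups of 4 or 6 TAC hearts, and it marked 18. Chance marks about 1 in 20 groups of genes not chosen by their values; many of these genes were named for steep slopes on a score in which wild type TAC replicate 7 is the highest heart, so far values there were favoured by the choice and the number of marks cannot be read against chance. Wild type TAC replicate 7, the heart of highest score, stood apart from the other wild type TAC hearts for Tuba1c (89.6 CPM), Fmod (80.1 CPM), Lox (152 CPM), Comp (55.3 CPM), Timp1 (165 CPM), Thbs4 (275 CPM), Spp1 (72.0 CPM), Ctgf (1363 CPM), Hbegf (49.8 CPM), Hspb1 (973 CPM), Serpinb9b (31.3 CPM) and Star (45.7 CPM). Wild type TAC replicate 1 stood apart for Pecam1 (258 CPM).

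Knockout TAC replicate 1, the knockout heart of highest score, stood apart from the other knockout TAC hearts for Krt18 (5.19 CPM), Cpt1b (1.57 CPM), Egfl7 (93.2 CPM) and Nr4a1 (62.3 CPM). Knockout TAC replicate 2 stood apart for Ech1 (850 CPM).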

How the results depend on the processing

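Against 1233 genes higher and 758 lower, the counts stayed within 1.5 times under other size factors, filters on low counts, DESeq2 and limma voom, and with Nppb, Acta1 or Ankrd1 left out of the score. They were 214 and 112 with a score without Nppa, 684 and 356 with score genes scaled to equal spread, 1935 and 1412 with no genotype term, 390 and 242 in knockout TAC alone, 721 and 474 in wild type TAC alone, 301 and 162 with the atrial list as covariate, 241 and 90 with the immediate early list, and 0 and 0 with the mitochondrial share. Leaving out 1 heart gave 597 to 1279 higher and 268 to 894 lower, and 0 to 2 genes for the difference between genotypes. Without both hearts farthest from the median centred score, an alternative chosen after seeing the data, they were 147 and 59. The genes called in the full fit kept their sign in each setting except for some in knockout TAC alone (98.3% kept it), with the mitochondrial share (95.9%), with the immediate early list (99.8%) and without those 2 hearts (99.95%). All these settings reuse hearts of the full fit, which favours the same sign. The cause of these shifts was not tested.

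Among the 75 genes refitted under every alternative, slopes that changed sign were those of Myh7 (-0.23 in knockout TAC alone, -0.49 with the mitochondrial share, -0.25 without the 2 hearts), Ppara (0.29 in knockout TAC alone, 0.24 with the mitochondrial share), Ppargc1a (-0.031 without Nppa in the score, -0.057 and -0.086 without knockout or wild type TAC replicate 1, -0.12 without the 2 hearts, within -0.086 to 0.21 over the leave-one-out fits) and Atp2a2 (0.39 in knockout TAC alone, 0.0041 with the mitochondrial share). In knockout TAC alone Hrc had 0.027, Pln 0.060 and Mki67 0.10. With the mitochondrial share mt-Co1, which is itself counted in that share, had 0.25 and Adgre1 -0.30, and with no genotype term Ccnb1 had -0.13. Other genes in the text were not refitted under every alternative; leaving out 1 heart gave slopes of -0.053 to 0.13 for Jun, -0.23 to 0.038 for Tcf21, -0.23 to 0.15 for Hipk2 and -0.056 to 0.32 for Stk40, Inka2 had 0.36 and Lpin1 0.79 in knockout TAC alone, Hipk2 had -0.11 and Stk40 -0.14 in wild type TAC alone, and with the mitochondrial share Lpin1 had 0.27 and Csf1r -0.12. Leaving out 1 heart moved the r of the TMM factor with the score between -0.17 and 0.43, and that of the number of detected genes between -0.077 and 0.42.

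With the replicate number as a block 208 genes were higher and 90 lower, and Mki67 had a slope of 0.036 and Birc5 of 0.015. The numbers did not pair the hearts: deviations of same-numbered hearts had correlations of -0.25, -0.21 and -0.14 for replicates 1, 2 and 4, and no heart correlated best with its own number.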
